A study of Mus musculus with 15 samples.

Results

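Expression of 10 core circadian clock genes was followed in differentiating 3T3-L1 cells, a mouse preadipocyte line, with less or more of the histone H3 lysine 9 demethylase JMJD1A, the product of Kdm3a. The genes Arntl (also called Bmal1), Clock, Per2, Per3, Cry1, Cry2, Nr1d1, Nr1d2, Dbp and Rora were taken by name, as core clock genes, from the 26301 genes counted in each of 15 RNA-seq libraries. All cells were collected on day 2 after induction in 10% FBS with IBMX (115 ug/mL), dexamethasone (1 uM) and insulin (1.67 uM), and all had been infected with retroviral vectors and selected with drugs. Control cells carried the empty shRNA vector (sh-Empty) and knockdown cells an shRNA against Jmjd1a (sh-Jmjd1a). The other 3 groups were knockdown cells that also received LacZ as a control, wild-type JMJD1A resistant to the shRNA (WT), or an equally resistant mutant that cannot bind iron (Mut). LacZ, WT and Mut cells therefore all carried the sh-Jmjd1a shRNA. Each group had 3 libraries. Nothing states that these came from separate infections or cultures, so p-values measure only the spread between libraries, which may be technical.

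The mammalian clock is a feedback loop of transcription. BMAL1 and CLOCK bind E-boxes and switch on the Per and Cry genes, whose proteins return to the nucleus and repress BMAL1 and CLOCK. In a second loop, the nuclear receptors REV-ERB (Nr1d1 and Nr1d2) repress Arntl and the ROR receptors activate it through shared ROR elements, and DBP drives genes through D-boxes. The transcripts therefore rise and fall with the time of day, and in cultured fibroblasts serum, glucocorticoids and agents that raise cAMP can set the phase. The libraries held 1 time point, and its hour of the day was not given in the sources used here, so a shift of phase and a change of overall level cannot be told apart.

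Total counts ranged from 11437058 to 25523148 per library with a median of 12916162. The highest total was that of WT replicate 3. Levels are in CPM, that is counts relative to the size of the library after TMM scaling of all 15 libraries. Changes are log2 fold changes fitted by edgeR (quasi-likelihood F test), and a gene was called at a Benjamini-Hochberg adjusted p under 0.05. Kdm3a stood at 174 ± 7.36 CPM in sh-Empty cells and 131 ± 5.75 CPM in sh-Jmjd1a cells (SD, n = 3), a log2 fold change of -0.42 (adjusted p = 2.91e-08). It stood at 119 ± 2.67 CPM with LacZ, 1700 ± 69 CPM with WT and 2210 ± 90.1 CPM with Mut, where counts of the introduced and the endogenous gene cannot be told apart. The knockdown thus left most of the Kdm3a level in place, and WT and Mut cells were far above the control level. All 8 adipocyte markers (Pparg, Cebpa, Fabp4, Adipoq, Cidec, Plin1, Lpl and Cfd) and all 7 preadipocyte and fibroblast markers were present in every group. The macrophage, endothelial, epithelial, muscle and neuronal markers summed to at most 4 CPM per list in any library, and the muscle markers were at 0 in all libraries.

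All 10 clock genes passed the filter on low counts in every comparison. In the knockdown set, Rora fell short of the minimum of 10 counts in part of the sh-Empty libraries (as few as 8). Dbp did so in part of the sh-Jmjd1a libraries (as few as 5). Each thus passed only with the libraries of the group where it was higher. To compare levels between genes, CPM was divided by exon length. Per kilobase, Clock (13.9 CPM per kb) and Nr1d1 (12.1 CPM per kb) were highest in sh-Empty cells, followed by Arntl (7.42 CPM per kb), Per2 (6.90 CPM per kb) and Cry2 (4.16 CPM per kb). Cry1 stood at 2.64 CPM per kb and Nr1d2 at 2.04 CPM per kb. Per3 (0.755 CPM per kb), Dbp (0.591 CPM per kb) and Rora (0.0863 CPM per kb) were lowest. Dbp had 5 to 33 counts and Rora 8 to 86 counts per library, so the counting error of these 2 genes was the largest of the 10.

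Promoters were searched for the elements through which the loop acts. RefSeq promoters on GRCm38.p6, 250 bases before to 50 bases after each start, were found for 9 of the 10 genes, with 12 promoters among them. Per2 had no entry and was not searched. The search used both strands for the E-box CACGTG, the E'-box CACGTT, the D-box TTANGTAA, the ROR element core TAGGTCA, the glucocorticoid response element and the cAMP response element TGACGTCA, which do not overlap in the matches found. The elements stood in 7.15%, 4.68%, 2.32%, 2.61%, 0.475% and 1.79% of 32851 mouse promoters, and in a promoter of 8.09%, 5.44%, 2.72%, 2.97%, 0.537% and 2.03% of 27025 genes, respectively. Of the 9 clock genes, the E-box was found in a promoter of 1, the E'-box in 3, the D-box in 1 and the ROR core in 1, and the last 2 elements in none. A match describes letters in the window and is not evidence that a protein binds there. The promoters of Clock, Nr1d2, Dbp and Rora, all called in the knockdown, held no match. Windows of 4 genes with a match are printed 5' to 3' on the strand of the gene, with the matched letters in capitals. Cry1 and Arntl were taken because they rose in the knockdown, as did Rora, which had no match to print, and Per2, which was not searched. Nr1d1 was taken because it moved in the rescue set, and Per3 because D-boxes are the elements that DBP binds. Cry2 holds the third E'-box, at -166.
Cry1, bases -150 to -1 before the start, chr10:85185055-85185204, minus strand, an E'-box at -79 and an E-box at -60: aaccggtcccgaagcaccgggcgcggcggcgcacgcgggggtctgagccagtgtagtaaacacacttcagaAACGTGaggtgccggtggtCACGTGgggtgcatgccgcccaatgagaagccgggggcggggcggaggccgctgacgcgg
Nr1d1, bases -150 to -1 before the start, chr11:98775378-98775527, minus strand, an E'-box at -28: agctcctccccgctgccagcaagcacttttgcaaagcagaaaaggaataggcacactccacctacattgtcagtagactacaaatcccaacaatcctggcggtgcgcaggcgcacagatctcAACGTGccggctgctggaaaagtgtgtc
Per3, bases -250 to -101 before the start, chr4:151044766-151044915, minus strand, D-boxes at -205 and -158: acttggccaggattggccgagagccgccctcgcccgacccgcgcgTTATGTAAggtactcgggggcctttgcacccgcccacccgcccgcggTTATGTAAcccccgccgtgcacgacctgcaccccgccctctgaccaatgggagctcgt
Arntl, bases 18 to 47 after the start, chr7:113207529-113207558, plus strand, the ROR core 30 bases after the start: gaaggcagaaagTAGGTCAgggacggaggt
The E'-boxes of Cry1 and Nr1d1 read CACGTT on the opposite strand and therefore appear as AACGTG.

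The first comparison asked how the clock genes differ when JMJD1A is reduced. In sh-Jmjd1a cells, 7 of the 10 clock genes changed against sh-Empty cells, where 46.2% of the 12272 genes tested were called. Arntl, Per2, Cry1 and Rora rose, and Clock, Nr1d2 and Dbp fell. This count and the median below include Rora and Dbp, which passed the filter only through the group where each was higher. The call of Dbp was lost in 8 of 13 alternatives. The median log2 fold change of the 10 was 0.218, against -0.003 over all genes tested. Per3, Cry2 and Nr1d1 were not called. In the same comparison all 8 adipocyte markers fell, from a summed level of 5130 to 5210 CPM in sh-Empty cells to 2630 to 2770 CPM in sh-Jmjd1a cells. Of the 7 preadipocyte and fibroblast markers (Col1a1, Col1a2, Pdgfra, Pdgfrb, Thy1, Vim and Dlk1), 5 rose and 1 fell. Their sums were 7740 to 7960 CPM and 12600 to 13400 CPM. The marker that fell was Dlk1, a preadipocyte gene, from a mean of 842 CPM to 502 CPM. Abundant genes dominate such sums, as Lpl does at a mean of 3900 CPM in sh-Empty cells. The part of these marker differences in the clock gene changes was not tested, and fewer cells of a type and less RNA per cell cannot be told apart in bulk libraries.

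**Figure D1:**
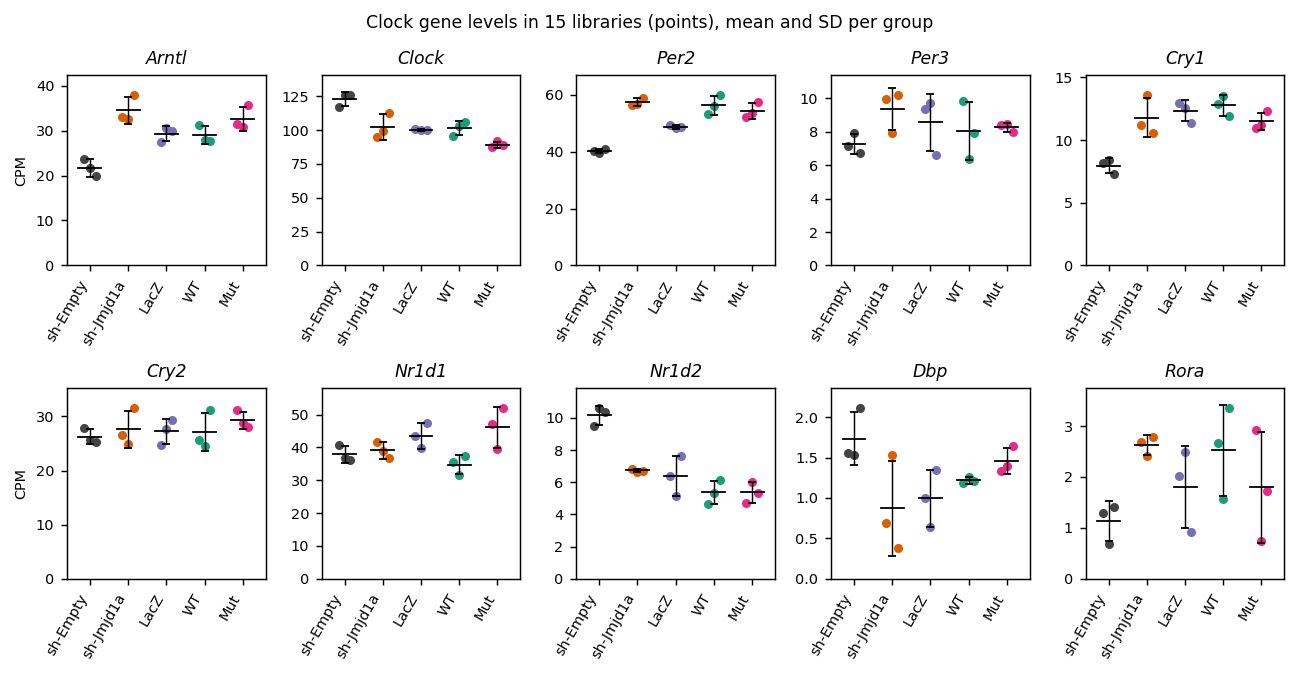
Levels of the 10 clock genes in CPM (vertical axes, from 0) in the 5 groups (horizontal axes). Points are libraries, long bars the mean and thin bars the SD of 3 libraries. Arntl, Per2 and Cry1 are lowest and Clock and Nr1d2 highest in the 3 sh-Empty libraries, while the groups overlap for Cry2.

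The activators moved in opposite directions. Arntl encodes BMAL1, the partner without which CLOCK cannot drive the loop, and lies on chr7:120350979-120457636 (mm9, plus strand). Its level was 23.7, 21.6 and 19.8 CPM in the sh-Empty libraries and 33.0, 32.5 and 37.9 CPM in the sh-Jmjd1a libraries. Every sh-Jmjd1a library was above every sh-Empty library, and the mean was 159% of the control. The log2 fold change was 0.67 ± 0.092 (SE) with an edgeR adjusted p of 7.02e-07. Clock, the DNA-binding partner of BMAL1, lies on chr5:76639992-76733817 (minus strand). It stood at 117, 126 and 126 CPM in sh-Empty cells and at 94.6, 99.1 and 113 CPM in sh-Jmjd1a cells, again without overlap. It fell by 0.28 on the log2 scale (SE 0.058, adjusted p = 0.000253), less than Arntl rose.

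Of the repressors, Per2 and Cry1 rose. Per2, whose protein joins the cryptochromes to inhibit BMAL1 and CLOCK, lies on chr1:93312561-93355907 (minus strand). It was measured at 40.3, 39.6 and 41.0 CPM in sh-Empty cells and at 56.5, 56.7 and 58.9 CPM in sh-Jmjd1a cells. These groups were tight and well separated, with a log2 fold change of 0.50 ± 0.066 and an adjusted p of 4e-07. Cry1, the stronger transcriptional repressor of the cryptochromes, lies on chr10:84594447-84647799 (minus strand) and carries the E-box printed above. It rose from 8.17, 8.43 and 7.29 CPM to 11.2, 13.6 and 10.6 CPM (log2 fold change 0.56 ± 0.14, adjusted p = 0.0019). The lowest sh-Jmjd1a library was above the highest sh-Empty library.

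Per3 and Cry2 did not pass the test. Per3, on chr4:150377761-150418774 (minus strand), is a PER protein that is dispensable for the rhythm itself. It stood at 7.13, 7.92 and 6.72 CPM in sh-Empty cells and at 9.97, 7.95 and 10.2 CPM in sh-Jmjd1a cells, with a log2 fold change of 0.37 ± 0.15 and an adjusted p of 0.0531. The groups did not overlap, but sh-Jmjd1a replicate 2 all but touched the control range. Per3 passed without that library (log2 fold change 0.48), without sh-Empty replicate 2 (0.44) and with RLE size factors (0.38). Cry2, on chr2:92243803-92274200 (minus strand), had 27.8, 25.7 and 25.3 CPM in sh-Empty cells and 26.5, 24.9 and 31.5 CPM in sh-Jmjd1a cells. The ranges overlapped, and the 95% interval of its log2 fold change ran from -0.12 to 0.26.

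The nuclear receptors of the second loop each behaved in their own way. Nr1d1 encodes REV-ERB alpha and lies on chr11:98629246-98636647 (minus strand). It was measured at 40.7, 36.7 and 36.1 CPM in sh-Empty cells and at 41.7, 38.9 and 36.7 CPM in sh-Jmjd1a cells. The groups overlapped and the 95% interval of the log2 fold change was -0.12 to 0.20. Nr1d2, the gene of REV-ERB beta on chr14:19036568-19071641 (minus strand), fell from 9.48, 10.6 and 10.4 CPM to 6.85, 6.67 and 6.73 CPM. All 3 sh-Jmjd1a libraries were close to each other and below the controls (log2 fold change -0.60 ± 0.15, adjusted p = 0.00119). Rora encodes the receptor that activates Arntl against the REV-ERB proteins, and lies on chr9:68501593-69236053 (plus strand). It rose from 1.3, 0.681 and 1.41 CPM to 2.69, 2.41 and 2.78 CPM, on 8 to 22 and 30 to 36 counts per library. The groups did not overlap, and the log2 fold change was 1.17 ± 0.32 (adjusted p = 0.004).

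Dbp is a D-box activator that BMAL1 and CLOCK drive directly, and lies on chr7:52960458-52965525 (plus strand). It stood at 1.56, 1.53 and 2.11 CPM in sh-Empty cells and at 0.694, 1.53 and 0.387 CPM in sh-Jmjd1a cells, on 18 to 33 and 5 to 19 counts. The libraries of sh-Jmjd1a cells spread widely, and replicate 2 reached the lowest control. The log2 fold change was -1.04 ± 0.41 with an adjusted p of 0.0413. The call was lost with DESeq2 (-1.01), on leaving out any 1 of the sh-Empty libraries (-1.10, -1.11 and -0.84 for replicates 1, 2 and 3), and on leaving out sh-Jmjd1a replicate 1 (-0.91) or 3 (-0.65). Among the libraries left out in turn it held only without sh-Jmjd1a replicate 2, where the log2 fold change was -1.73.

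**Figure D2:**
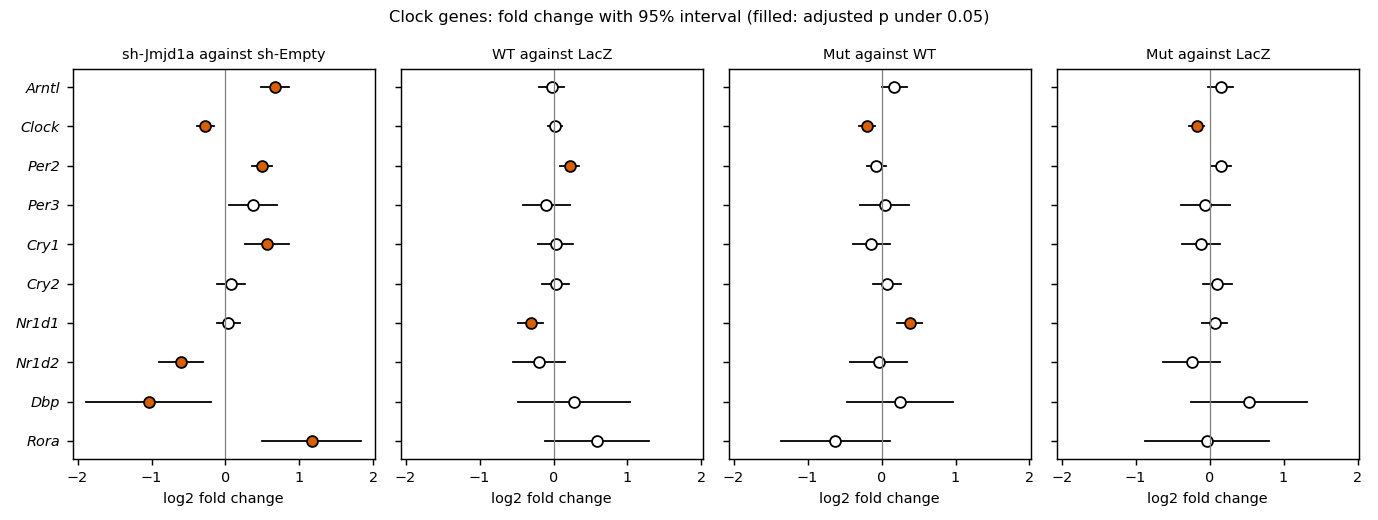
Log2 fold changes (horizontal axes) of the 10 clock genes (rows) in 4 comparisons, with 95% intervals from the edgeR fit. Filled points have an adjusted p under 0.05. In the knockdown 7 points are filled, and 2, 2 and 1 in WT against LacZ, Mut against WT and Mut against LacZ.

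The second comparison asked whether returning JMJD1A to knockdown cells moves the genes. With WT against LacZ, 2 of the 10 clock genes were called, where 9.5% of the 12557 genes tested were called. Per2 was higher and Nr1d1 lower. The median log2 fold change of the 10 was 0.024, against 0 over all genes. In the same comparison all 8 adipocyte markers rose, from a summed 3340 to 3420 CPM with LacZ to 3810 to 4180 CPM with WT. Of the 7 preadipocyte and fibroblast markers, 2 rose and 1 fell. Their sums were 14700 to 14900 CPM with LacZ and 14100 to 14600 CPM with WT. Dlk1, of the second list, had a mean of 559 CPM with LacZ and 755 CPM with WT. The part of these marker differences in the clock gene changes was not tested.

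Per2 was at 49.3, 48.2 and 48.5 CPM with LacZ and at 53.1, 55.9 and 59.9 CPM with WT. Every WT library was above every LacZ library, and the log2 fold change was 0.22 ± 0.065 (adjusted p = 0.0182). Per2 thus rose in the knockdown and was also higher with WT than with LacZ. Its mean with LacZ (48.6 CPM) was itself below that of sh-Jmjd1a cells (57.4 CPM). WT and sh-Jmjd1a cells were not called apart (log2 fold change 0.02). In WT against LacZ, leaving out LacZ replicate 2 (0.22), LacZ replicate 3 (0.22) or WT replicate 3 (0.16) ended the call of Per2. Nr1d1 was at 43.4, 39.7 and 47.4 CPM with LacZ and at 35.4, 31.5 and 37.3 CPM with WT. The WT libraries were all below the LacZ libraries, and Nr1d1 fell by 0.31 on the log2 scale (SE 0.084, adjusted p = 0.013). This call was lost without LacZ replicate 3 (-0.24) or WT replicate 2 (-0.25).

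Other genes that changed in the knockdown were not called in WT against LacZ. Arntl had 27.4, 30.6 and 29.9 CPM with LacZ and 31.2, 28.0 and 27.7 CPM with WT, and the 95% interval of the log2 fold change was -0.19 to 0.14. Cry1 had 13, 12.6 and 11.4 CPM with LacZ and 12.9, 13.5 and 11.9 CPM with WT, with an interval of -0.21 to 0.26. Neither interval reached the size of the change that each gene showed in the knockdown, in either direction. For Nr1d2 the values were 6.36, 5.12 and 7.61 CPM with LacZ and 4.65, 5.35 and 6.12 CPM with WT, with an interval of -0.55 to 0.15. For Rora they were 2.01, 2.49 and 0.924 CPM and 2.66, 1.57 and 3.35 CPM, with a wide interval of -0.12 to 1.29 on 13 to 86 counts per library. LacZ and WT libraries overlapped for both genes.

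The 4 other clock genes also overlapped between LacZ and WT and were not called. Clock was at 101, 100 and 99.8 CPM with LacZ, a tight group inside the range of the WT libraries, and the interval was -0.08 to 0.12. Cry2 was at 24.8, 27.7 and 29.3 CPM with LacZ and at 25.7, 24.5 and 31.2 CPM with WT (interval -0.15 to 0.21). Per3 was at 9.37, 9.74 and 6.61 CPM and at 9.82, 6.37 and 7.91 CPM (interval -0.41 to 0.22). These 2 genes thus varied more within a group than between the group means. Dbp was at 1.00, 0.640 and 1.35 CPM with LacZ and at 1.18, 1.26 and 1.21 CPM with WT, on 9 to 31 counts, and its interval of -0.48 to 1.04 was wide.

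The third comparison set the iron-binding mutant against wild-type JMJD1A. With Mut against WT, 2 of the 10 clock genes were called, where 23.8% of all genes were, and the median log2 fold change was -0.002 against -0.001 over all genes. Nr1d1 was at 47.1, 39.4 and 51.9 CPM in Mut cells, all above the 31.5 to 37.3 CPM of WT cells (log2 fold change 0.38 ± 0.085, adjusted p = 0.000792). Clock was at 87.3, 91.7 and 89.1 CPM in Mut cells, below the 96.0, 103 and 106 CPM of WT cells (log2 fold change -0.20 ± 0.052, adjusted p = 0.00394). The call of Clock was lost without WT replicate 3, where the log2 fold change was -0.15. Arntl had 31.5, 30.7 and 35.7 CPM in Mut cells, overlapping the WT range, and its log2 fold change of 0.17 had an adjusted p of 0.14. Per2 was at 52.1, 53.5 and 57.6 CPM in Mut cells, overlapping WT cells (95% interval -0.20 to 0.06). Cry1 was at 11, 11.2 and 12.3 CPM (interval -0.39 to 0.11) and Nr1d2 at 4.73, 6.02 and 5.36 CPM (interval -0.43 to 0.34), and both overlapped the WT range. Rora spread from 0.734 to 2.92 CPM over the Mut libraries (interval -1.36 to 0.11), with a log2 fold change of -0.63 that was not called but was called without Mut replicate 1 (-1.19). Dbp, at 1.34, 1.39 and 1.64 CPM, lay above the WT libraries but was not called (17 to 19 counts, log2 fold change 0.25, interval -0.47 to 0.97). Per3 (7.96 to 8.44 CPM) and Cry2 (28.1 to 31.1 CPM) in Mut cells lay within the range of WT cells. All 8 adipocyte markers fell in this comparison, to 2600 to 2700 CPM in sum with Mut. Of the 7 preadipocyte and fibroblast markers, 4 rose and 1 fell. The part of both lists in the clock gene changes was not tested.

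Against LacZ, Mut cells had 1 of the 10 clock genes called, where 9.24% of all genes were. Clock, at 99.8 to 101 CPM with LacZ, was lower with Mut (log2 fold change -0.17 ± 0.053, adjusted p = 0.0283). The groups did not overlap, but the call did not survive leaving out any 1 of the LacZ libraries (-0.17, -0.17 and -0.18 for replicates 1, 2 and 3) or Mut replicate 1 (-0.16) or 3 (-0.17). Nr1d1 differed between Mut and LacZ by 0.07 on the log2 scale, with a 95% interval of -0.10 to 0.24. Mut and LacZ cells thus overlapped for Nr1d1, and WT cells lay below both. These 3 comparisons share libraries and are not independent of one another. Of the adipocyte markers, 7 fell with Mut against LacZ, and of the 7 preadipocyte and fibroblast markers 4 rose and 1 fell. The part of both lists in the result was not tested.

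Reads of Nr1d1 need care because its 3' end overlaps Thra, the thyroid hormone receptor alpha gene on the opposite strand, by 263 exon bases in GENCODE M1 on mm9. The strand setting of the counting was not given in the sources used here, so reads from the overlap could have been counted for either gene or for neither. Thra had log2 fold changes of 0.45 in the knockdown, -0.21 in WT against LacZ and 0.28 in Mut against WT, all called, and 0.06 in Mut against LacZ, not called. In the rescue set Thra thus moved in the direction of Nr1d1, and in the knockdown Thra rose while Nr1d1 was not called. The ratio of Nr1d1 to Thra CPM was 0.296 to 0.338 in sh-Empty libraries, 0.221 to 0.245 in sh-Jmjd1a, 0.223 to 0.269 with LacZ, 0.215 to 0.239 with WT and 0.215 to 0.272 with Mut. The sh-Empty libraries had the highest ratios, without overlap with any other group. The part of shared reads in the Nr1d1 values was not tested. Dbp shares 491 exon bases with Sphk2, Cry2 shares 295 with D930015M05Rik and Rora shares 82 with Gm15511, each on the opposite strand. Sphk2, a sphingosine kinase gene, was called in none of the 4 comparisons above with edgeR, and its log2 fold change in the knockdown was -0.14.

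**Figure D3:**
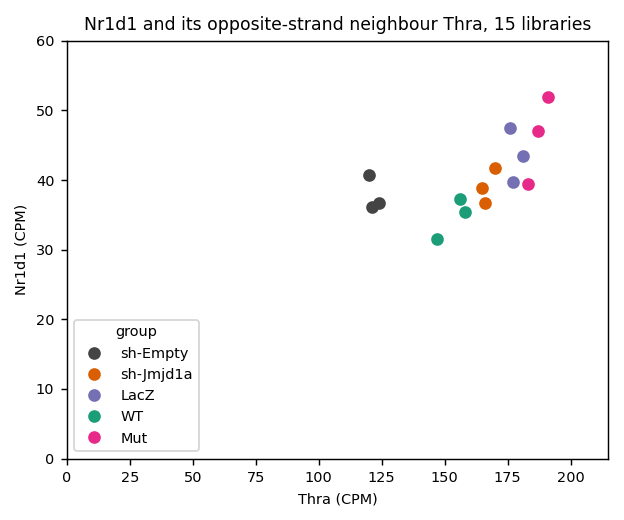
Nr1d1 (vertical axis, CPM) against Thra (horizontal axis, CPM) in each of the 15 libraries, coloured by group, with both axes from 0. The sh-Empty libraries lie apart at 120 to 124 CPM of Thra, and the WT libraries are the lowest of the other 4 groups in Thra.

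The knockdown difference was then tested against the difference between LacZ and WT cells, which is also one between less and more JMJD1A. The contrast was (sh-Jmjd1a - sh-Empty) - (LacZ - WT), so the WT against LacZ values above enter with their sign turned. It was fitted over all 15 libraries, where 32.7% of the 12758 genes tested were called. It was called for 6 of the 10 clock genes. The knockdown and rescue sets share no library. On the log2 scale it was 0.66 ± 0.13 (SE) for Arntl (edgeR adjusted p = 3.99e-05) and 0.73 ± 0.092 for Per2 (adjusted p = 9.52e-09), which had moved in opposite directions in sh-Jmjd1a against sh-Empty and in LacZ against WT. It was 0.60 ± 0.18 for Cry1, 1.77 ± 0.51 for Rora, -0.24 ± 0.077 for Clock and -0.79 ± 0.23 for Nr1d2. Without 1 library the call was lost for Clock (sh-Jmjd1a replicate 1, difference -0.20), Cry1 (sh-Jmjd1a replicate 2, difference 0.48) and Rora (WT replicate 3, difference 1.41). Nr1d1 was not called with all libraries (-0.26) but was without LacZ replicate 2 (-0.32).

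Levels were also compared between WT and sh-Empty cells and between LacZ and sh-Jmjd1a cells, both chosen after seeing the data. LacZ, WT and Mut cells had received a further infection that sh-Empty and sh-Jmjd1a cells had not, and its part in these comparisons cannot be told apart from that of the inserted gene. In WT against sh-Empty, 6 of the 10 clock genes were called, where 45.6% of all genes were. Arntl (0.42), Per2 (0.49), Cry1 (0.67) and Rora (1.23) were higher and Clock (-0.27) and Nr1d2 (-0.88) lower on the log2 scale, and Rora was not called without WT replicate 3 (0.87). This comparison and the knockdown share the sh-Empty libraries. WT cells, with Kdm3a far above the control level, thus did not have sh-Empty levels of these 6 genes. In LacZ against sh-Jmjd1a, 1 clock gene was called, where 6.98% of all genes were. Per2 was lower with LacZ (log2 fold change -0.24, adjusted p = 0.0136), a call that was lost without LacZ replicate 2 (-0.23) or sh-Jmjd1a replicate 3 (-0.22).

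**Figure D4:**
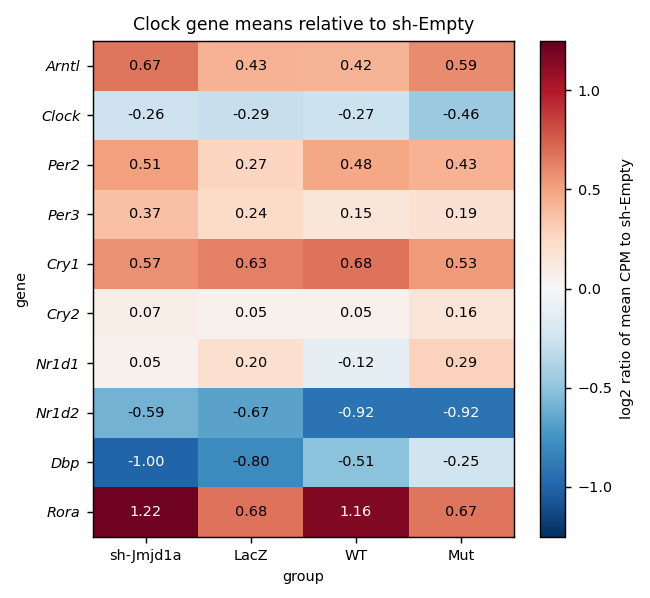
Log2 ratio of the mean CPM of each clock gene (rows) in 4 groups (columns) to its mean in sh-Empty cells, with red for higher and blue for lower. The 4 columns share the sh-Empty mean. Arntl, Per2, Per3, Cry1, Cry2 and Rora are above 0 and Clock, Nr1d2 and Dbp below 0 in all 4 groups. Arntl is at 0.67, 0.43, 0.42 and 0.59, and Cry2 at only 0.07, 0.05, 0.05 and 0.16.

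The order of the 5 groups differed from gene to gene. For Arntl, the groups ran from sh-Empty through WT, LacZ and Mut to sh-Jmjd1a, and of the 4 neighbouring pairs only sh-Empty and WT were called by the edgeR fit of all 15 libraries. For Per2, sh-Empty was followed by LacZ, Mut, WT and sh-Jmjd1a, and only sh-Empty and LacZ were called. For Cry1, sh-Empty was followed by Mut, sh-Jmjd1a, LacZ and WT, and only sh-Empty and Mut were called. Nr1d2 ran from Mut through WT, LacZ and sh-Jmjd1a to sh-Empty, and only the last pair was called. Clock ran from Mut through LacZ, WT and sh-Jmjd1a to sh-Empty, with the first and the last pair called. No neighbours were called for the other 5 genes. Of these, Nr1d1 ran from WT through sh-Empty, sh-Jmjd1a and LacZ to Mut, and Dbp from sh-Jmjd1a through LacZ, WT and Mut to sh-Empty. Per3 ran from sh-Empty through WT, Mut and LacZ to sh-Jmjd1a, Rora from sh-Empty through Mut, LacZ and WT to sh-Jmjd1a, and Cry2 from sh-Empty through WT, LacZ and sh-Jmjd1a to Mut. 

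Across the 15 libraries, Pearson correlations of log2 CPM between the clock genes ran from -0.83 to 0.83 over 45 pairs. The highest were those of Arntl with Per2 and of Clock with Nr1d2, both 0.83, and the lowest was that of Cry1 with Nr1d2, -0.83. Arntl and Clock were correlated at -0.74. After the group means were removed, these 4 pairs stood at 0.06, 0.36, -0.32 and -0.03. These 4 pairs were chosen for their values over all libraries. Over the 45 pairs, the values without group means ran from -0.69 to 0.55, and that of Cry1 with Cry2 went from -0.05 to -0.69. The libraries share groups and scaling, and these values are descriptions. The ratio of Arntl to Nr1d1 CPM, an activator gene and the repressor of it, was 0.548 to 0.589 in sh-Empty libraries and 0.792 to 1.03 in sh-Jmjd1a libraries. It was 0.630 to 0.772 with LacZ, 0.742 to 0.890 with WT and 0.670 to 0.778 with Mut. All 12 libraries with the shRNA were above the 3 without it. These 12 all came from knockdown cells or cells made from them, and are not independent tests of the shRNA. In the knockdown Arntl was called and Nr1d1 was not, so the ratio there mostly repeats the change of Arntl.

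Among 10108 genes of at least 5 CPM on average, those most like Arntl over the 15 libraries were Rabep2 (r = 0.947), Arhgef2 (0.937) and Parp3 (0.932). Most like Nr1d1 were Map7d1 (0.945), Sox4 (0.889) and Fgfr1 (0.884). For Dbp, a sparse gene, they were Trpt1 (0.884), Ddx28 (0.872) and Gabarapl2 (0.837), among 10109 genes. No clock gene was among these 9.

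The wider clock pathway was described by a list of 22 other genes, of which 18 were tested. Npas2 and Rorb were at 0 in all libraries, and Hlf had at most 1 count. In the knockdown 12 of the 18 were called, 7 higher and 5 lower, with a median log2 fold change of 0.188, beside 46.2% called and a median of -0.003 over all genes tested. Among these, the calls of Csnk1e (-0.23) and Usp2 (0.68) were lost without some single libraries and with an adjusted p under 0.01. That of Csnk1e was also lost with DESeq2. Noct, a rhythmic gene that encodes an NADP phosphatase, stood at 36.1, 43.7 and 37.6 CPM in sh-Empty cells and at 18.7, 14.9 and 17 CPM in sh-Jmjd1a cells. It fell by 1.22 on the log2 scale (SE 0.098, adjusted p = 2.56e-11), without overlap. Tef, a D-box activator related to DBP, fell by 0.56 (adjusted p = 7.85e-09). Bhlhe40 and Bhlhe41 encode the related E-box repressors DEC1 and DEC2 and moved apart, Bhlhe40 falling by 0.28 and Bhlhe41 rising by 1.00. Per1, a PER gene that responds early to glucocorticoids and cAMP, rose by 0.36, Nampt, a clock output in NAD synthesis, by 0.37, Gsk3b, a kinase of clock proteins, by 0.28, and Wee1, a clock-driven cell cycle kinase, by 0.81. Their adjusted p-values were all at most 0.000109.

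Of the same 18 genes, edgeR called 0 in WT against LacZ, where 1 had an unadjusted p under 0.05, and DESeq2 called 0, beside 9.5% of all genes called by edgeR. In Mut against WT, 4 were called (22.2%), 2 in each direction, close to the 23.8% of all genes. Noct had 29.7, 24.2 and 22.8 CPM in WT cells and 14.7, 12 and 12.3 CPM in Mut cells, and fell by 0.96 on the log2 scale (SE 0.11, adjusted p = 4.25e-09). Mut libraries were also all below the 21.0 to 23.2 CPM of LacZ libraries (log2 fold change -0.75, adjusted p = 1.27e-05). Bhlhe40 fell by 0.40 and Per1 rose by 0.13 in Mut against WT, and the call of Per1 (adjusted p = 0.0444) was lost with DESeq2 and without any 1 of WT replicates 2 (0.08) and 3 (0.15), Mut replicates 1 (0.13) and 2 (0.12) and LacZ replicate 3 (0.13). Usp2, called in Mut against WT (0.44), was not called there without Mut replicate 3 (0.33). In Mut against LacZ, 4 were called (22.2%), beside 9.24% of all genes, with Bhlhe40 at -0.31 and Per1 at 0.20. There the call of Nfil3 (0.20) was lost without LacZ replicate 1 (0.17) or 2 (0.20) or Mut replicate 2 (0.21) or 3 (0.13). Tef, Nampt, Gsk3b, Wee1 and Bhlhe41 were not called in any of these 3 comparisons, and their log2 fold changes in WT against LacZ lay between -0.09 and 0.20.

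**Figure D5:**
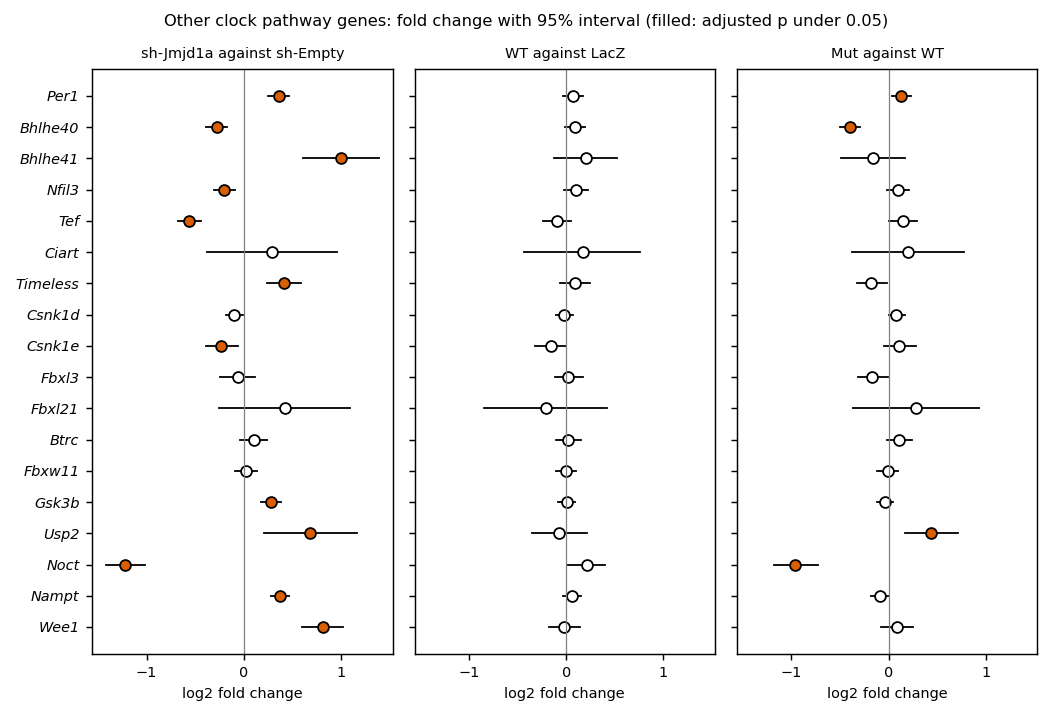
Log2 fold changes (horizontal axes) of the 18 other clock pathway genes tested (rows), with 95% intervals from the edgeR fit, in the knockdown, in WT against LacZ and in Mut against WT. Filled points have an adjusted p under 0.05, and Noct lies lowest in the first panel (-1.22) and in the last (-0.96).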

How the data were processed

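The deposited values are raw counts per Entrez Gene number, which the authors made with fastp (trimming), HISAT2 (alignment to mm9) and featureCounts. The strand setting is not given in the sources used here; the labels and the methods name different kits. Counts of 26301 genes in 15 libraries (11437058 to 25523148 per library) were joined, and RefSeq symbols found for 24191. Counts were analysed with edgeR 4.0.16 in R 4.3.3 (TMM, filterByExpr with a minimum count of 10, robust quasi-likelihood F test, two-sided, Benjamini-Hochberg over all genes). The 6 libraries of the knockdown and the 9 of the rescue were fitted apart. Contrasts across sets and the order of levels used all 15 libraries. Positions and exon lengths came from GENCODE M1 on mm9. The fit was tested on simulated data. Replicates of a group differed by more than counting error (chi-square per degree of freedom 2.07 to 5.44). Clock genes and lists were chosen with earlier results of these data known. Other clock genes were described where called, at most 8, by adjusted p in the knockdown, and 3 genes most like Arntl, Nr1d1 and Dbp. Csnk1e, Usp2 and Nfil3 were named as well because their calls were lost in some alternatives. Alternatives were RLE size factors, legacy quasi-likelihood, DESeq2 1.42.0, other filters, one fit of all libraries, a replicate block, adjusted p under 0.01 and each library left out.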

Additional observations from a re-analysis of the deposited data

Results flagged for a closer look

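For 6 of the 10 clock genes the difference between sh-Jmjd1a and sh-Empty cells was unequal to that between LacZ and WT cells. This was by the edgeR test of the contrast over 15 libraries, which called 32.7% of the 12758 genes tested. The contrast is (sh-Jmjd1a - sh-Empty) - (LacZ - WT). It was 0.66 for Arntl, 0.73 for Per2, 0.60 for Cry1 and 1.77 for Rora on the log2 scale. For Clock it was -0.24 and for Nr1d2 -0.79. Kdm3a had a log2 fold change of -0.42 in the knockdown and of 3.83 in WT against LacZ, and the part of this in the contrast was not tested.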

How the results depend on the processing

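Arntl, Clock, Per2, Cry1, Nr1d2 and Rora kept their knockdown call in every alternative that could be run for them, and Nr1d1 its call in Mut against WT. With at least 10 counts in every library, Dbp could not be tested in any comparison nor Rora in the knockdown. With an adjusted p under 0.01, all genes called fell to 576 in Mut against LacZ and 733 in WT against LacZ, and clock genes called to 0 in both. After the group mean of each gene was removed from log2 CPM, the deviations of libraries with the same replicate number were compared. They were hardly correlated within the sets (12 same-numbered pairs, correlations -0.05 to 0.06). In 7 of the 12 pairs the same number gave the highest correlation. Whether replicate numbers mark a shared batch was not tested further. With the replicate block, 6 clock genes were called in the knockdown, without Dbp, and 2, 2 and 1 in WT against LacZ, Mut against WT and Mut against LacZ, and Nr1d2 stood at 0 in Mut against WT.

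With each library left out in turn, 674 to 1256 genes were called in Mut against LacZ and 861 to 1216 in WT against LacZ. In Mut against WT 2334 to 3169 were called, and in LacZ against sh-Jmjd1a 612 to 927. Clock genes called were 0 to 1 in Mut against LacZ, 0 to 2 in WT against LacZ, 1 to 3 in Mut against WT and 0 to 1 in LacZ against sh-Jmjd1a. Log2 fold changes near 0, none of them called, changed sign. In the knockdown these were Cry2 (-0.03 to 0.14) and Nr1d1 (-0.01 to 0.10). In WT against LacZ they were Arntl (-0.08 to 0.02), Clock (-0.02 to 0.06), Cry1 (-0.03 to 0.09), Cry2 (-0.12 to 0.10) and Per3 (-0.25 to 0). In Mut against WT they were Nr1d2 (-0.14 to 0.11) and Per3 (-0.06 to 0.17), and in Mut against LacZ Nr1d1 (-0.02 to 0.18), Per3 (-0.21 to 0.04) and Rora (-0.60 to 0.37). In LacZ against sh-Jmjd1a they were Clock (-0.07 to 0.05), Cry1 (-0.01 to 0.19), Cry2 (-0.09 to 0.09), Dbp (-0.17 to 0.90), Nr1d2 (-0.23 to 0.05) and Per3 (-0.23 to 0.03). Cry2 also changed sign in WT against sh-Empty (-0.06 to 0.15) and in the contrast of the 2 sets (-0.04 to 0.18). The cause was not tested. Depth limits Dbp and Rora most.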
